A study of Mus musculus with 26 samples.

Results

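Cortical neurons were recovered alongside microglia in the sorted embryonic libraries of this study, and 1647 barcodes of 37948 (4.34%) were taken as such neuron barcodes. A barcode stands for the RNA of 1 droplet, and its RNA was counted as unique molecular identifiers (UMIs). All barcodes with at least 500 genes and at most 20% of UMIs from mitochondrial genes were kept. A neuron barcode held at least 8 UMIs of Tubb3, Stmn2, Dcx, Neurod6 and Neurod2 together, and more UMIs of these 5 genes than of the microglial genes Csf1r, C1qa, C1qb, C1qc and Tyrobp together. The same thresholds turned round gave 34169 microglia, which are used here for reference. The neuron barcodes were thus chosen by the measured UMIs of these 10 genes, whose levels are given as a description and were not tested.

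The study asked how fetal microglia respond to maternal immune activation (MIA). Pregnant wild-type C57Bl/6N mice received saline or Poly(I:C), which imitates the RNA of a virus, by intraperitoneal injection at E12.5, and microglia were sorted from the prospective somatosensory cortex of their embryos at E13.5 and E15.5 (E13 and E15 in the sample labels). There were 4 groups, saline and MIA at each age, with 3 libraries each, and every library mixed embryos of both sexes. Meninges were removed, the tissue was broken up with a pestle in the cold without enzymes, and cells were sorted on CD11b, CX3CR1 and CD45, surface proteins of microglia. The labels do not say which libraries share a dam, so p-values measure the spread between these libraries. All 12 libraries are labelled as microglia, and the neuron barcodes therefore go against that label. The study itself removed a neuronal cluster from its embryonic data as contamination. Which of the neuron barcodes that cluster held is not known here.

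New projection neurons of the cortex arise from apical and intermediate progenitors of the ventricular zones, and deep-layer neurons are born before upper-layer neurons, many of which send axons across the corpus callosum. Tubb3 and Stmn2 encode a neuronal tubulin and a tubulin-binding protein of growing neurites, Dcx a microtubule-associated protein of migrating neurons, and Neurod6 and Neurod2 transcription factors of excitatory neurons. Csf1r is the receptor on which microglia depend, the C1q genes encode the complement component that starts the classical pathway, and Tyrobp is a signalling adaptor of myeloid cells. Microglia of this age touch, survey and engulf neural cells.

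The libraries held between 280 and 6375 kept barcodes and between 6160925 and 105751888 UMIs in them. Neuron barcodes were shallower than microglia in every library, with medians of 2513 to 6577.5 UMIs against 8340.5 to 26247.5. Their median share of mitochondrial UMIs was 3.51% to 8.36%, against 1.96% to 4.69% in microglia. Some libraries shared barcode sequences beyond a handful. E13.5 MIA replicate 2 and E15.5 MIA replicate 3 had 230 barcodes in common, 61.3% of the former, and E15.5 saline replicate 3 shared 157 with each of them. E13.5 saline replicate 1 and E13.5 MIA replicate 1 shared 67. From which library such barcodes came cannot be told, so the share of E13.5 MIA replicate 2, with 5 neuron barcodes, rests on its label. In all, 1163 kept barcodes were also kept in another embryonic library, 23 of them neuron barcodes, and results are given with and without these barcodes. No pair of libraries shared more than 1 neuron barcode.

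A neuron barcode held a median of 22 UMIs of the 5 neuronal genes and 3 of the 5 microglial genes. The neuronal genes outnumbered the microglial ones at least 4 times in 1280 of the neuron barcodes (77.7%), and 178 (10.8%) had no UMI of the 5 microglial genes. By library this last share ran from 0% (E13.5 saline replicate 1) to 75% (E15.5 MIA replicate 3). It was 3.90% in E15.5 MIA replicate 1, the library with most neuron barcodes. Just inside the threshold, 251 neuron barcodes with 8 or 9 neuronal UMIs had a median of 2071 UMIs in all. Just outside it, 286 barcodes with 6 or 7, also more than their microglial UMIs, had a median of 1780.5. A separate group of 219 barcodes reached 8 neuronal UMIs but held as many or more microglial ones. These had medians of 12 neuronal and 210 microglial UMIs and of 11667 UMIs in all, and they were counted as microglia wherever the microglial genes led.

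**Figure D1:**
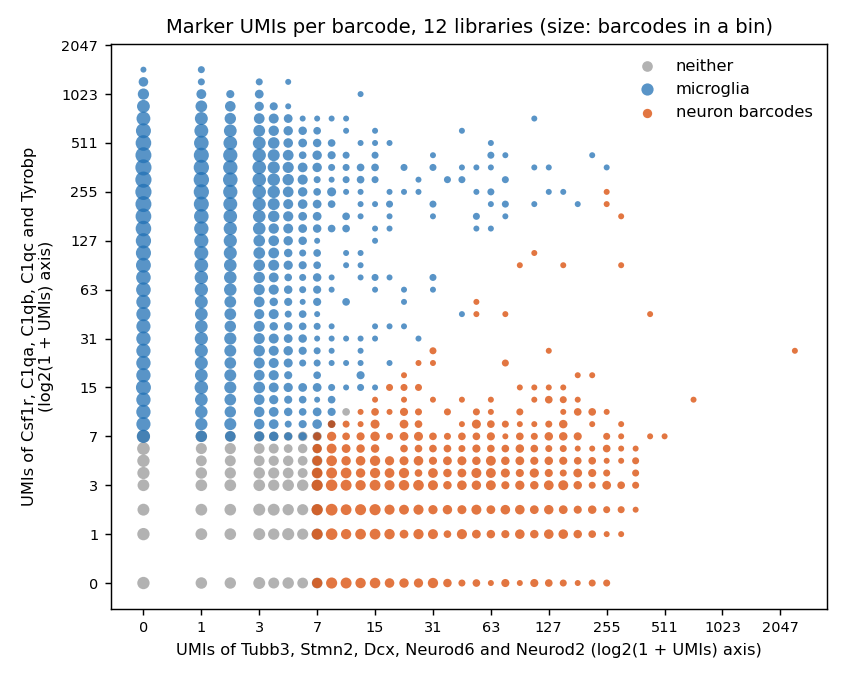
Each point is a bin of barcodes from the 12 libraries, by UMIs of the 5 neuronal genes (horizontal) and of the 5 microglial genes (vertical), both on a log2(1 + UMIs) axis, and its size grows with the number of barcodes. The neuron barcodes (orange) lie along the lower right with a median of 22 neuronal and 3 microglial UMIs, and 219 barcodes hold at least 8 neuronal UMIs but as many or more microglial ones.

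The 5 chosen genes were detected unequally among the neuron barcodes. Tubb3 had a UMI in 98.8% and Stmn2 in 91.9% of them, and Tubb3 in 20.7% of microglia. Neurod6 was found in 77.9%, Dcx in 75.4% and Neurod2 in 73.7%, against 9.73%, 6.33% and 5.50% of microglia, whose libraries were deeper per barcode. Of the microglia, 59.2% held none of the 5 genes.

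The share of neuron barcodes differed widely between libraries. At E13.5 it was 1.58%, 1.19% and 1.48% in the saline libraries (19, 22 and 49 barcodes) and 0.714%, 1.33% and 2.37% in the MIA libraries (2, 5 and 151 barcodes). At E15.5 it was 2.47%, 4.25% and 2.63% after saline (143, 132 and 126 barcodes) and 14.6%, 3.44% and 1.90% after MIA (846, 124 and 28 barcodes). E15.5 MIA replicate 1 stood apart: it held 51.4% of all neuron barcodes, with a share of 14.6% (lower Clopper-Pearson 95% bound 13.7, counting error only), while the other 11 libraries reached at most 4.25%. Both ages overlapped, since E13.5 MIA replicate 3 lay above E15.5 MIA replicate 3.

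**Figure D2:**
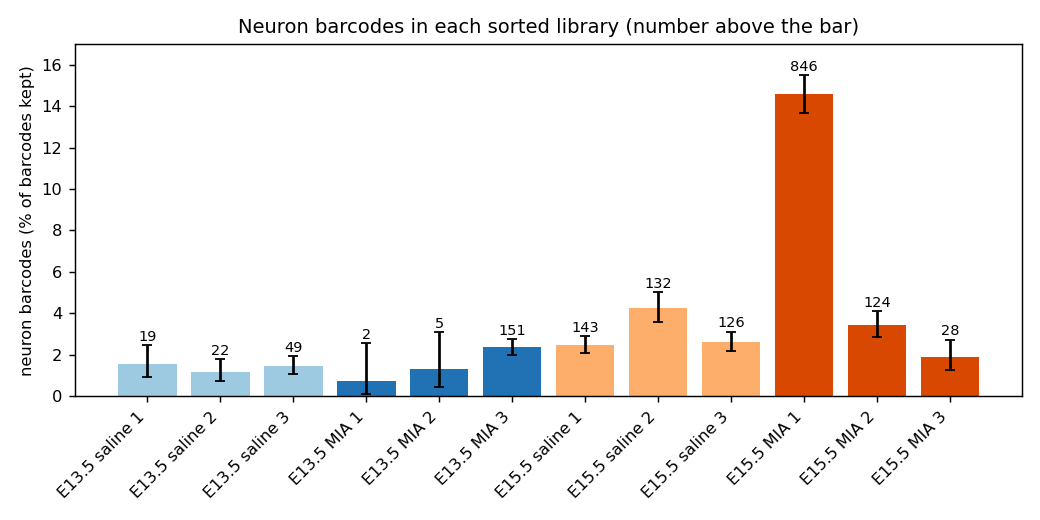
Bars show the percentage of kept barcodes that were neuron barcodes in each of the 12 libraries, with Clopper-Pearson 95% intervals and the number of neuron barcodes above. E15.5 MIA replicate 1 reaches 14.6%, and the other libraries lie between 0.714% and 4.25%.

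Averaged over libraries, neuron barcodes made up 1.44% ± 0.545 at E13.5 and 4.88% ± 4.82 at E15.5 (SD, n = 6 each). The difference of 3.44 percentage points had p = 0.010 in a two-sided exact permutation test over libraries within treatment, whose smallest possible p is 0.005, and 0.060 after Benjamini-Hochberg adjustment over the 6 tests of shares and microglial RNA. It therefore missed the threshold of 0.05. Without E15.5 MIA replicate 1 the difference was 1.45 points (exact permutation p = 0.015), and without barcodes shared between libraries it was 3.18 points (exact permutation p = 0.015). Without E15.5 MIA replicate 3 it was 4.62 points and passed the threshold (exact permutation, adjusted p = 0.030). Without E13.5 MIA replicate 1, 2 or 3 it was 3.25, 3.40 or 3.66 points, with exact permutation p of 0.155, 0.145 and 0.1. With stricter barcode filters it was 2.48 points (exact permutation p = 0.055), and over the 9 libraries with at least 20 neuron barcodes it was 3.03 points (exact permutation p = 0.3). MIA libraries averaged 4.06% ± 5.24 and saline libraries 2.27% ± 1.13, a difference of 1.79 points (exact permutation p = 0.615 within age, adjusted p = 0.774, n = 6 each). Without E15.5 MIA replicate 1 the mean after MIA was lower than after saline by 0.194 points, written -0.194 (exact permutation p = 0.72). A share reflects the sort as well as the tissue, which cannot be told apart here.

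Microglial RNA inside the neuron barcodes was measured with 20 microglial genes outside the rule. They mark the same cells as the 5 microglial genes of the rule, so the rule also limited their RNA in neuron barcodes. Of barcodes with at least 8 neuronal UMIs, it left out 0% (E13.5 MIA replicate 1) to 22.7% (E15.5 saline replicate 1). The 20 genes include the microglial receptors Cx3cr1, P2ry12 and Trem2, the lysosomal protease Ctss and the transcription factor Spi1, which directs myeloid fate. In saline libraries these genes supplied 0.0795%, 0.0613% and 0.121% of the UMIs of neuron barcodes at E13.5, and 0.0929%, 0.0967% and 0.0354% at E15.5. After MIA they supplied 0.0426% and 0.0761% in E13.5 replicates 2 and 3, and 0.0913%, 0.1004% and 0.0274% at E15.5. In E13.5 MIA replicate 1 only 1 such UMI was counted among 12942. The microglia of the same libraries devoted 2.03% to 3.71% of their UMIs to the 20 genes, so the neuron barcodes of a library carried 0.381% to 5.63% of the microglial level.

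E15.5 saline replicate 3 and E15.5 MIA replicate 3 lay below the other 4 libraries of their age, with microglial RNA at 1.16% and 0.975% of the microglial level against 2.46% to 3.41%. In the former 28 of 126 neuron barcodes and in the latter 12 of 28 had no UMI of the 20 genes. These levels rest on summed UMIs, and in E15.5 MIA replicate 2 a single neuron barcode held 473 of 1036. Per neuron barcode, the median was 1.5 in E15.5 saline replicate 3 and 1 in E15.5 MIA replicate 3. It was 2 in E15.5 MIA replicate 2, where 20 of 124 had no such UMI, and 4 to 6 in the remaining E15.5 libraries. E15.5 MIA replicate 1, the library with most neuron barcodes, had 10 of 846 without one (1.18%), and its level of 0.0913% lay among those of the other libraries, although its neuron barcodes had the highest median depth. E13.5 saline replicate 3 was highest, at 0.121% (exact Poisson 95% interval 0.108 to 0.134, counting error only).

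**Figure D3:**
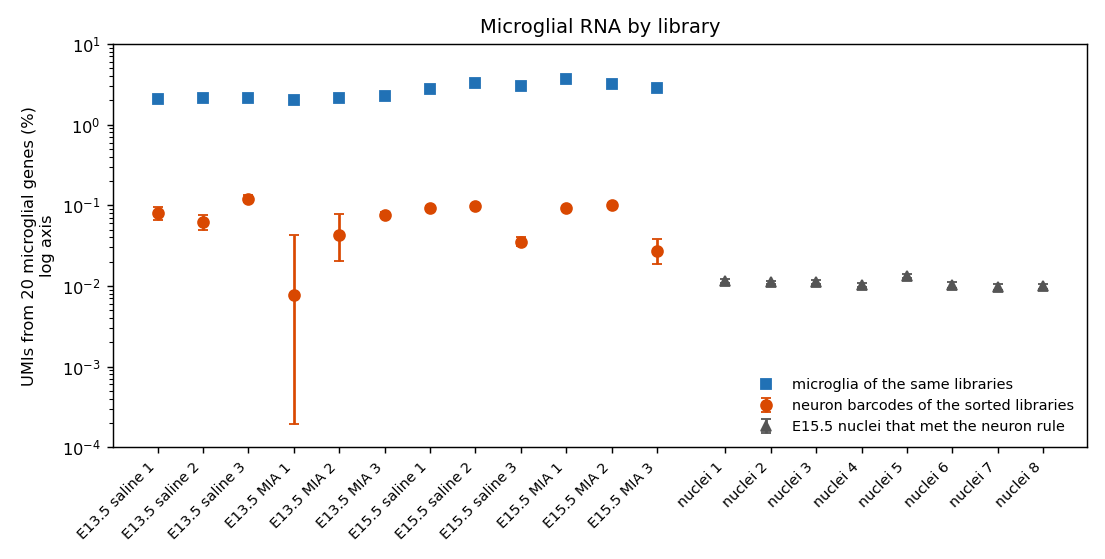
Points give the percentage of UMIs from the 20 microglial genes, on a log axis. They show neuron barcodes (orange) and microglia (blue) of each sorted library and E15.5 nuclei that met the same rule (grey). Bars are exact Poisson 95% intervals for counting error only, and they leave out the clumping of UMIs in single barcodes. Neuron barcodes lie between 0.00773% and 0.121%, below the 2.03% to 3.71% of microglia, and the nuclei between 0.0097% and 0.0133%.

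No difference of microglial RNA by age or treatment passed the test. Microglial RNA averaged 0.0646% ± 0.038 of UMIs at E13.5 and 0.074% ± 0.0333 at E15.5, a difference of 0.00937 points (exact permutation p = 0.645, adjusted p = 0.774, n = 6 each). Leaving out 1 library gave 0.000768 (without E13.5 MIA replicate 1) to 0.0208 points (without E15.5 MIA replicate 3). It averaged 0.0811% ± 0.0298 after saline and 0.0576% ± 0.0372 after MIA, a difference of -0.0235 points (exact permutation p = 0.275, adjusted p = 0.55). Taken relative to the microglia of the same library, the log2 ratio differed by -0.14 between ages (exact permutation p = 0.83, adjusted p = 0.83) and by -0.87 between treatments (exact permutation p = 0.175, adjusted p = 0.525). Without E13.5 MIA replicate 1, which rests on 2 neuron barcodes and 1 microglial UMI, the treatment differences were -0.0149 points and -0.41, and over the 9 libraries with at least 20 neuron barcodes they were -0.00845 points and -0.24. The difference in points was also smaller without E15.5 MIA replicate 3 (-0.0121) and without E13.5 saline replicate 3 (-0.0152), and larger without E15.5 saline replicate 3 (-0.0334). With the median over neuron barcodes in place of summed UMIs, it was -0.0477 points (exact permutation p = 0.075) and the log2 ratio differed by -1.19 (exact permutation p = 0.065). The sign of both age differences changed under some alternatives.

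Gene by gene, the 20 microglial genes kept a similar proportion to microglia. Over the 9 libraries with at least 20 neuron barcodes, their mean level in neuron barcodes was 1.80% to 9.83% of that in microglia, with a median of 2.58%. Cx3cr1 stood at 38.7 CPM (counts, here UMIs, per 1000000 UMIs of the neuron barcodes of a library) against 2146 in microglia, and Trem2 at 36.1 against 1217. The 2 highest ratios belonged to Coro1a, an actin-binding protein of blood cells, at 9.83% (68.5 CPM), and Ctsz, a lysosomal protease, at 5.12% (88.1 CPM). In 8 libraries of E15.5 cortical nuclei from the same series, labelled wild-type or Csf1r-null, 22733 nuclei met the neuron rule, and in these Coro1a and Ctsz were also found, at 34.6 and 53.8 CPM, while Cx3cr1 and Trem2 were at 0.0427 and 0.0285 CPM. The other 18 genes alone supplied 0.00773% to 0.0943% of UMIs in the neuron barcodes of the 12 libraries, which is 0.426% to 5.03% of the microglial level. Microglia, which depend on Csf1r, numbered 0 in the nuclei labelled wild-type MIA replicate 2 and 2 in those labelled Csf1r-null saline replicate 2, against these labels, so the genotypes are not compared. Nuclei lack the cytoplasm, so these values are set side by side without a test.

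The microglial RNA was spread over most neuron barcodes in small numbers, within the limit that the rule set. Of the 1647 neuron barcodes, 96 (5.83%) had no UMI of the 20 genes and 142 (8.62%) had 1, and the median of a library was 0.5 to 6. The share without such a UMI was 1.18% in E15.5 MIA replicate 1 and 2.04% to 50% in the other libraries. At the other end, 242 neuron barcodes (14.7%) had at least 10 and together held 50.3% of the 11405 UMIs. In 8 neuron barcodes (0.486%) the 20 genes made up at least 1% of UMIs, and the highest numbers in 1 barcode were 473 in E15.5 MIA replicate 2, 318 in E15.5 MIA replicate 1 and 238 in E15.5 saline replicate 2. The number rose with depth less than in proportion. The 264 neuron barcodes below 2000 UMIs had a median of 3 such UMIs, which made up 0.236% of their RNA, while the 454 with at least 10000 UMIs had a median of 7, which made up 0.0671%. Of these deepest barcodes 314 came from E15.5 MIA replicate 1. At like depth this library lay above the other 11 pooled in 3 of 4 ranges, with 0.284% against 0.214% below 2000 UMIs, 0.178% against 0.115% from 2000 to 5000 and 0.0724% against 0.0588% from 10000, and near them from 5000 to 10000, with 0.0889% against 0.0914%.

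RNA was also found the other way round. A list of 20 general neuronal genes outside the rule, such as the tubulin gene Tuba1a and the growth cone gene Gap43, supplied 1.60% to 3.49% of the UMIs of neuron barcodes. In microglia the same genes supplied 0.0243% to 0.0337% in the 6 libraries of E13.5 and 0.0482% to 0.145% in those of E15.5. The highest value was in E15.5 MIA replicate 1, the library with most neuron barcodes. Of the 219 barcodes with at least 8 neuronal UMIs but as many or more microglial ones, 99 were in that library. Their part in these values was not tested.

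Other cell types that the sort could have admitted left little RNA in the neuron barcodes, apart from red blood cells. The 8 genes of border macrophages, such as Mrc1 and Pf4, summed to 0 to 11 CPM over the 9 libraries, with Cd163 at 0 in all, and the 8 of endothelium and pericytes to 0 to 15 CPM. Of 8 genes of blood myeloid cells, among them Ccr2 and S100a8, 6 were at 0 in the neuron barcodes of all 12 libraries, and most of the rest was Lyz2, at 12.9 CPM against 521 in microglia. Red blood cell genes summed to 14830 CPM in E15.5 saline replicate 2, where 1 neuron barcode held 13087 of the 13213 UMIs, and to 660 CPM in E15.5 MIA replicate 2, where 1 barcode held 555 of 681.

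The neuron barcodes were not of 1 kind. Clustering them by expression gave 10 groups, which serve as a description, since the genes that define a group cannot also test it. By markers, 1 group was callosal-like (266 barcodes, led by Inhba and Dok5), 2 groups were deep-layer-like (249 led by Meg3 with Tle4 and Zfpm2, and 153 led by Hs3st4 and Rprm) and 1 was interneuron-like (73, led by Dlx6os1, Gad2 and Lhx6). A further 184 barcodes were intermediate-progenitor-like, led by Neurog2 and Eomes, and 126 were led by the division genes Top2a and Mki67. The rule therefore also took in barcodes with progenitor or division genes, and the name neuron goes further than these data for them. No name was given to 3 groups.

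Of those without a name, a group of 260 barcodes was led by Cx3cr1, Ctss and C1qc after the globin gene Hbb-bs, and it had the lowest median depth, 2139 UMIs. Hbb-bs was detected in 13.1% of these barcodes, against 12.9% of all neuron barcodes, and in E15.5 saline replicate 2, as above, 1 barcode held most of the red blood cell UMIs. The group's share of UMIs from the 20 microglial genes, 0.337%, was the highest of the 10 groups, which otherwise ranged from 0.0485% to 0.155%. It held 59.1%, 32.7% and 33.8% of the neuron barcodes of E13.5 saline replicates 2 and 3 and E13.5 MIA replicate 3. In the E15.5 libraries it held 7.2% to 28.7%. The other groups without a name were led by Unc5c and Tenm1 (181 barcodes) and by the semaphorin receptor gene Nrp1 and Ndst3 (126 barcodes). A last group of 29 was striatal-like, led by Ebf1 and Isl1, and 27 of its barcodes came from E15.5 MIA replicate 1, so it may stand for that library. The same library gave 145 of the 184 intermediate-progenitor-like barcodes. The callosal-like group held 264 barcodes of E15.5 and 2 of E13.5, and cycling barcodes occurred in all 12 libraries.

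**Figure D4:**
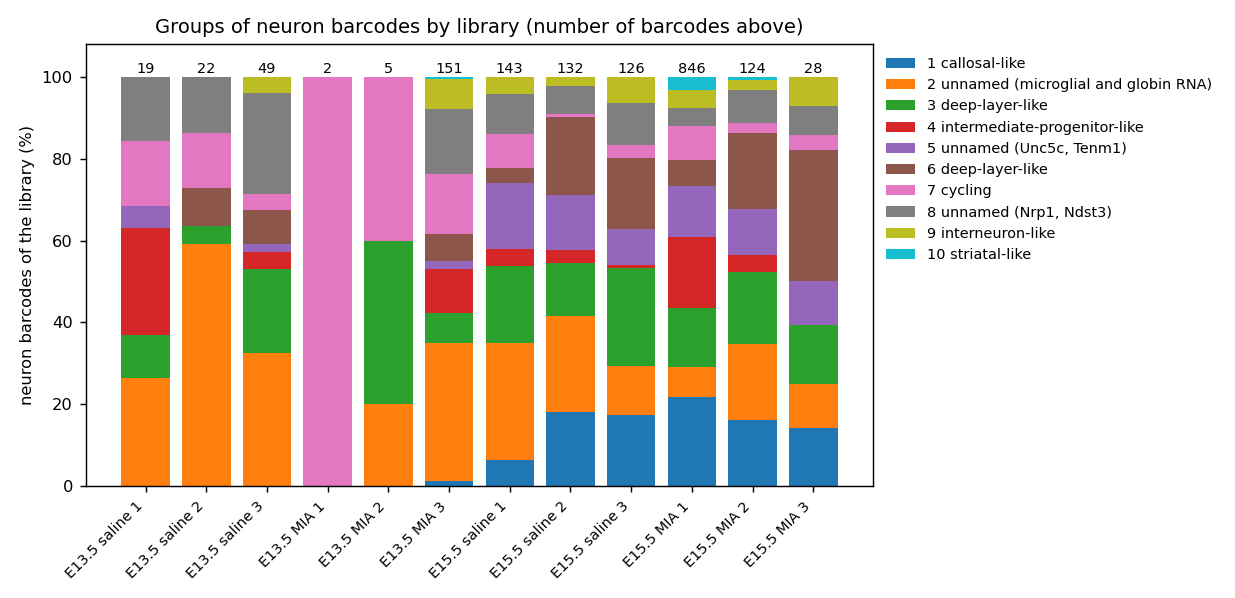
Stacked bars show the percentage of each library's neuron barcodes in the 10 groups found by clustering, with the number of neuron barcodes above each bar. The callosal-like group makes up 6.3% to 21.9% of the E15.5 libraries and at most 1.3% of the E13.5 libraries, and the E13.5 MIA bars of replicates 1 and 2 rest on 2 and 5 barcodes.

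To compare ages, UMIs were summed over the neuron barcodes of each library, and the 9 libraries with at least 20 of them (1621 barcodes) were fitted with the quasi-likelihood test of edgeR. They comprised E13.5 saline replicates 2 and 3, E13.5 MIA replicate 3 and all 6 libraries of E15.5. Of 10 genes of callosal and upper-layer neurons 5 rose at E15.5 and the others did not pass, and 1 of 12 deep-layer genes, Bcl11b, fell. Of 10136 genes tested, 32 were called at an adjusted p under 0.05 (0.316%), 26 higher at E15.5 (0.257%) and 6 lower (0.0592%), and 1052 (10.4%) had an unadjusted p under 0.05, 6.01% of all genes on the higher and 4.37% on the lower side. Leaving out 1 library gave between 1 call (without E13.5 MIA replicate 3) and 168 (without E15.5 saline replicate 1). Without E13.5 MIA replicate 3, the only E13.5 MIA library fitted, the age comparison used saline libraries alone, here and in the values below. In the main fit this library weighed as much as both E13.5 saline libraries together. A gain within cells and a change in which cells were caught cannot be told apart. Of the 32 genes, 29 had a higher level in neuron barcodes than in microglia.

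Ptn, which encodes the secreted growth factor pleiotrophin (chromosome 6, 36714929 to 36810220 in mm10), changed most firmly. Its level was 185, 189 and 338 CPM in the 3 libraries of E13.5, in the order given above, and 846, 1276 and 916 CPM after saline and 1096, 1368 and 1236 CPM after MIA at E15.5. The ages did not overlap, which held for 6.61% of all genes tested (3.3% higher and 3.31% lower at E15.5). Ptn rose 4.47-fold, a log2 fold change of 2.16 ± 0.24 (SE; edgeR adjusted p = 0.000661), and it was called under all 21 alternatives tried.

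Pou3f2, a transcription factor of late progenitors and upper-layer neurons (chromosome 4, 22482780 to 22488366), stood at 72.5, 131 and 141 CPM at E13.5. At E15.5 it was at 653, 361 and 366 CPM after saline and at 561, 459 and 423 CPM after MIA, with no overlap (log2 fold change 1.95 ± 0.27, edgeR adjusted p = 0.0053). It was higher in each E15.5 library than in any E13.5 library and was called under 19 of the 21 alternatives.

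Inhba, a subunit of activins, was at 0, 0 and 4.51 CPM at E13.5 and between 24.9 and 73 CPM at E15.5, so its fold rests on few UMIs (edgeR adjusted p = 0.00786). Cux1, a transcription factor of upper layers, rose from a mean of 104 ± 39.8 CPM (SD, n = 3) to 252 ± 28 (n = 6), a log2 fold change of 1.14 ± 0.22 (edgeR adjusted p = 0.035), and microglia of the same libraries held 110 CPM of it. With Ptn and Pou3f2, these were among the 5 called genes of the 10 callosal and upper-layer genes. All 10 had log2 fold changes above 0, with a median of 1.25 against 0.02 over all genes tested, of which 51.5% lay above 0. The 5 that did not pass, Pou3f1, Cux2, Mef2c, Pou3f3 and Lmo4, had log2 fold changes from 0.63 to 1.30 and edgeR adjusted p of 0.142 to 0.47. Summed over the list, levels ranged from 1419 to 1695 CPM at E13.5 and from 3489 to 4359 CPM at E15.5.

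Bcl11b, a zinc-finger transcription factor of subcerebral projection neurons (chromosome 12, 107910403 to 108003602), moved the other way. It stood at 1187, 707 and 664 CPM at E13.5, and at 280, 249 and 430 CPM after saline and 215, 294 and 265 CPM after MIA at E15.5. The lowest E13.5 library was above the highest E15.5 library, and the log2 fold change was -1.47 ± 0.22 (edgeR adjusted p = 0.0053, called under 18 of 21 alternatives). It was the only one of 12 deep-layer genes to be called.

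The rest of the deep-layer list was divided. Tbr1, the transcription factor of layer 6 neurons, fell short of the threshold at 251, 283 and 160 CPM against 82.7 to 199 CPM (log2 fold change -0.82, edgeR adjusted p = 0.17). Fezf2, which specifies corticospinal neurons, was at 251, 199 and 178 CPM against 68.9 to 249 CPM (log2 fold change -1.02, edgeR adjusted p = 0.177), and E15.5 MIA replicate 3 was as high as the E13.5 libraries. The median of the list was -0.78, with 6 genes lower and 2 higher at an unadjusted p under 0.05. Hs3st4 and Nfe2l3 were the 2 on the higher side, at log2 fold changes of 1.12 and 1.42 (edgeR adjusted p = 0.474 and 0.303).

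**Figure D5:**
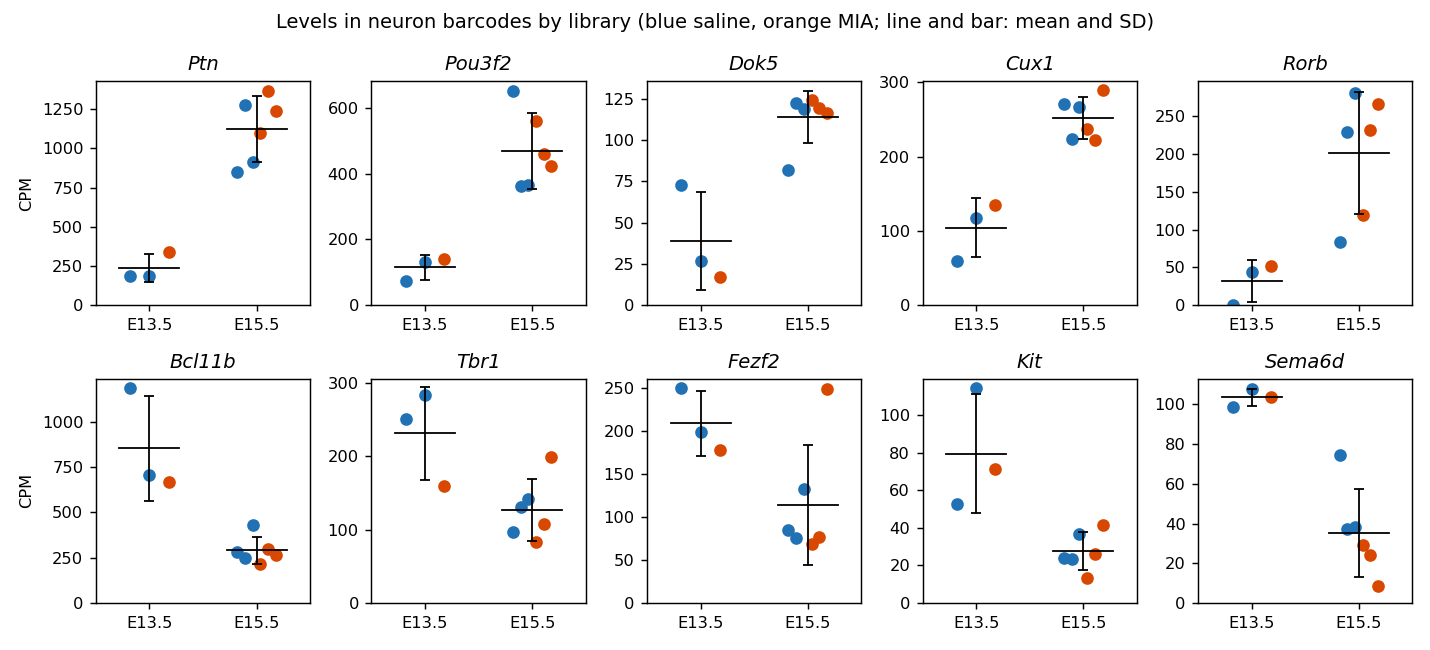
Points are CPM in the neuron barcodes of single libraries (blue saline, orange MIA; 3 libraries of E13.5 and 6 of E15.5), with the mean (line) and SD (bar) of each age, on axes that start at 0. Ptn, Pou3f2, Dok5, Cux1 and Rorb are higher at E15.5 and Bcl11b, Kit and Sema6d lower without overlap, while the ages overlap for Tbr1 and Fezf2.

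Detection per barcode was compared after each barcode was thinned to 2000 UMIs, which left out 264 shallower neuron barcodes (43 of E13.5 and 221 of E15.5). Bcl11b then had a UMI in 56.6% of neuron barcodes at E13.5 and 33.6% at E15.5 (69.8% and 51.0% unthinned), or 41.3% at E15.5 without MIA replicate 1. Pou3f2 was found in 20.0% and 42.6% (30.2% and 55.3% unthinned; 33.0% without that library). Thinned microglia, which should lack these genes, had a UMI of them in 0.452% to 1.21%, below the shares in neuron barcodes. They pool the barcodes of all libraries of an age, so that libraries with more barcodes weigh more, and were not tested.

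Other genes rose at E15.5 too. Rorb, a nuclear receptor of layer 4 neurons, went from 0, 43.8 and 51.4 CPM to between 83.8 and 280 CPM (log2 fold change 2.37 ± 0.48, edgeR adjusted p = 0.045), and its log2 fold change was 6.59 without E13.5 saline replicate 3. The noncoding RNA Gm30382 went from at most 6.6 CPM to between 31.4 and 149 CPM, and its log2 fold change ranged from 3.54 (without E13.5 saline replicate 3) to 6.74 (without E13.5 saline replicate 2) on leaving out 1 library. The potassium channel gene Kcnk2 (1.98), the docking protein gene Dok5 (2.05), Clstn2, a synaptic adhesion protein (1.80), Ssbp2 (1.80), Fam84a (1.73), the adhesion receptor gene Adgrl3 (1.70) and Gnai1, a G protein subunit (1.63), followed, with edgeR adjusted p from 0.0053 to 0.0474. Without E13.5 saline replicate 3 Clstn2 was at 2.66 and Adgrl3 at 2.29, and without E13.5 MIA replicate 3 Dok5 was at 1.25 and Fam84a at 1.09. Between 9 and 20 of 21 alternatives kept each of these calls.

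Among genes that fell, Kit, the receptor for stem cell factor, was at 52.8, 115 and 71.3 CPM at E13.5 and between 13.4 and 41.5 CPM at E15.5 (log2 fold change -1.77 ± 0.32, edgeR adjusted p = 0.0233). Sema6d, a transmembrane semaphorin that steers axons, was at 98.9, 107.8 and 104 CPM and then between 8.3 and 74.3 CPM (log2 fold change -1.52 ± 0.27, edgeR adjusted p = 0.0229). Neither gene overlapped between ages. Plxnd1, a semaphorin receptor, was also called lower, from a mean of 37.2 CPM at E13.5, and the histone gene Hist1h2ap was called lower but stood at 285 CPM in microglia against 26.2 ± 18.5 CPM (SD, n = 6) in E15.5 neuron barcodes. Sst, the interneuron peptide somatostatin, was called at -3.61 (edgeR adjusted p = 0.035) on 64 CPM in E13.5 saline replicate 3, and without that library its log2 fold change was 0.82.

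For lists of earlier or more general stages, counts of 0 called genes stand against 0.316% of all genes called and tell nothing about the lists. None of 10 intermediate progenitor genes was called, with a median of -0.90 and 9 of 10 below 0. Eomes, their defining transcription factor, was at 39.6, 53.9 and 119 CPM and then at 0 to 72.8 CPM (log2 fold change -1.32, edgeR adjusted p = 0.241). Cell cycle genes had a median of -0.60 with none of 10 called, and apical progenitor genes one of -0.19 with none of 9 called. General neuronal genes had a median of 0.34 with none of 20 called, and Mapt, the axonal microtubule protein tau, had 1.27 (edgeR adjusted p = 0.0813), or 0.75 without E13.5 MIA replicate 3.

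Synaptic genes had a median of 0.55, and Camk2b, a subunit of a calcium-dependent kinase, was the 1 called of 14, at 2.50 ± 0.46 (edgeR adjusted p = 0.0269), or 1.65 without E13.5 MIA replicate 3. Genes of axon guidance had a median of 0.05 with none of 17 called, although the adhesion gene Ncam1 did not overlap between ages, at 392 to 590 CPM and then 605 to 1082 CPM (edgeR adjusted p = 0.0831). Interneuron genes had a median of 0.23 with Sst the 1 called of 10. Proteasome subunits had a median of -0.03 with none of 31 called. The 20 microglial genes had a median of -0.11 with none called, and the 5 tested red blood cell genes one of 5.39 with none called, where 1 barcode of E15.5 saline replicate 2 held most of the UMIs.

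Of the smaller lists, none held a called gene. Cajal-Retzius genes had a median of 0.29 (4 tested), subplate genes 0.55 (3), striatal-like genes 0.35 (4), neuronal signals to microglia -0.60 (5), interferon-stimulated genes -1.12 (2) and immediate early and heat shock genes 0.04 (5). The 6 neuronal genes that the study names after MIA had a median of -0.02. Genes of border macrophages and of endothelium were too rare to be tested, and 1 of 8 blood myeloid genes was tested.

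After MIA at E15.5, compared with saline (3 libraries each), none of the 10136 genes was called by edgeR (0%), and 176 (1.74%) had an unadjusted p under 0.05, 0.75% of all genes on the higher and 0.987% on the lower side. DESeq2 also called 0, with 29 under 0.05 unadjusted. E13.5 MIA had 1 library with at least 20 neuron barcodes, so the same comparison at E13.5, and the difference between ages, were not run, since 2 libraries per group were required. The libraries of the 2 treatments did not overlap for 6.98% of genes (2.75% higher and 4.22% lower after MIA), which is the background for the single genes below.

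Intermediate progenitor genes had a median log2 fold change of 0.68 after MIA, against -0.01 over all genes, and all 10 lay above 0, as did 48.7% of all genes. Summed over the list, levels were 857, 394 and 243 CPM after saline and 1034, 490 and 207 CPM after MIA, so the treatments overlapped and an MIA library was lowest. Intermediate-progenitor-like barcodes made up 17.1% of E15.5 MIA replicate 1 and 0% to 4.2% of the other E15.5 libraries, and their part in the shift was not tested. Eomes was at 30.5, 8.98 and 8.2 CPM after saline and at 72.8, 48.4 and 0 CPM after MIA (log2 fold change 1.73 ± 0.48, edgeR adjusted p = 1), and its log2 fold change was 1.24 without E15.5 MIA replicate 1 and 2.68 without E15.5 saline replicate 1. Neurog2, which commits progenitors to the neuronal fate, was at 90.5, 24.7 and 12.3 CPM and at 151, 68.8 and 0 CPM (edgeR adjusted p = 1). In both genes the treatments overlapped, and E15.5 MIA replicate 3, with 28 neuron barcodes, had none.

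Single libraries carried other differences. Ebf1, a transcription factor of striatal neurons, was at 71.4 CPM in E15.5 MIA replicate 1 and at most 10.9 CPM in the other 5 libraries, and its log2 fold change of 3.16 became -2.02 without that library. Cxcl12, a chemokine made by cortical progenitors, was at 42.6 CPM there and at most 10.1 CPM elsewhere, and its value of 2.02 became -0.20. Hbb-bt, a globin gene, was at -5.33 and became 0.56 without E15.5 saline replicate 2. Sp9, a transcription factor of interneurons, was at 3.81, 12.3 and 10.9 CPM after saline and 27.7, 19.4 and 16.6 CPM after MIA, without overlap (log2 fold change 1.44, edgeR adjusted p = 1).

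Deep-layer genes had a median of -0.32, synaptic genes -0.23 and genes of axon guidance -0.21 after MIA, with none called. Examples were Zfpm2 at -0.93, Snap25 at -0.62 and Tenm4 at -0.53 (edgeR adjusted p = 1 for each), and Tenm4 was at -0.23 without E15.5 MIA replicate 1. The study reports Tenm4 higher after MIA in nuclei of migrating, corticothalamic and callosal neurons. Callosal genes had a median of 0.02, general neuronal genes 0.05, cell cycle genes 0.10, apical progenitor genes 0.47, interneuron genes 0.31 and proteasome subunits 0.07. Of the smaller lists, subplate genes had a median of -0.93, striatal-like genes 0.05, interferon-stimulated genes -0.19 and immediate early and heat shock genes 0.25. All 4 tested Cajal-Retzius genes lay below 0, among them Reln, the secreted protein of these cells, at -1.04 (edgeR adjusted p = 1; -0.64 without E15.5 saline replicate 2), and all 5 neuronal signals to microglia lay above 0, with none called in either list. The 6 neuronal genes that the study names had a median of -0.02, with 3 above and 3 below 0. The study reports rises for some neuronal genes and falls for others, in nuclei by cell type, so this median does not test them. Among the 6, Banf1, a chromatin-binding protein, was at 203 to 217 CPM after saline and 235 to 274 CPM after MIA (log2 fold change 0.25 ± 0.20, edgeR adjusted p = 1). The study reports Banf1 lower after MIA in nuclei of apical progenitors and callosal neurons. The 20 microglial genes had a median of 0.26 with none called, and the 5 red blood cell genes one of -4.22 with none called.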

How the data were processed

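The deposited files hold counts of UMIs per gene and barcode, made by the authors with Cell Ranger (3.1.0 in the submitters' processing notes, another version in the methods of the study) against mm10, with no normalization. Samples were grouped by their labels into 4 groups of 3 libraries. The batch that the study used as a covariate is not in the labels used here, so no within-batch values are given. Counts were summed over the neuron barcodes of each library. In R 4.3.3, edgeR 4.0.16 tested genes by quasi-likelihood, after filterByExpr and TMM scaling, with all 4 groups in 1 model and the age contrast as the mean of both treatments. The threshold was an adjusted p of 0.05 by Benjamini-Hochberg over all genes. The tests were checked on simulated counts. For the gene test these held no differences in cell mixture between libraries, so they do not vouch for single calls. CPM are per 1000000 UMIs without the TMM factor. Named genes were called, higher in neuron barcodes than in microglia, at 50 CPM or more and without overlap, the 12 largest changes per direction. List examples had the lowest p. Plxnd1 and Hist1h2ap were named after their values were seen. Shares were compared by exact permutation over libraries. Barcodes were clustered on 2000 variable genes, 30 principal components and 15 neighbours (Leiden resolution 1, leidenalg 0.10.2, scanpy 1.11.5). Doublets were left in, and an alternative removed 25 neuron barcodes as such. Alternatives varied the thresholds, filters, normalization, tool and libraries. DESeq2 was version 1.42.0. The neuron rule, gene lists and tests were chosen with earlier results of these data known. Gene coordinates are from GENCODE. Some genes are not reported here.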

Additional observations from a re-analysis of the deposited data

Results flagged for a closer look

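In 11 of 72 groups of libraries examined, 1 library lay far from the rest of its group by Dixon's test at 95%. Chance alone marks about 1 group in 20 where values are normally distributed and groups are chosen beforehand. Most groups here were genes chosen partly by their values in these libraries, so the count is not set against that rate. The share of neuron barcodes in E15.5 MIA replicate 1, 14.6%, was set apart both from the other E15.5 libraries and from the other MIA libraries. In the neuron barcodes of the same library, Ebf1 was high at 71.4 CPM, Cxcl12 at 42.6 CPM and Neurog1, a transcription factor of progenitors, at 1.88 CPM. For Neurog1 the other 5 libraries of E15.5 were at 0, with 120538 to 1050212 UMIs against 7460677. Whether these depths account for the values of 0 was not tested. In E15.5 saline replicate 3, Bcl11b was high at 430 CPM and the cell surface gene Cd24a low at 868 CPM. In E15.5 saline replicate 2, the globin genes Hbb-bs and Hbb-bt reached 6011 and 2347 CPM, most of it from 1 barcode. Dok5 was low in E15.5 saline replicate 1, at 81.9 CPM, and Fezf2 high in E15.5 MIA replicate 3, at 249 CPM.

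In the sorted microglia of P14 mice, which no comparison above uses, 34 of 29899 barcodes met the same neuron rule, 3 to 10 in each of the 6 libraries. Their share was 0.0601% to 0.176% of a library, against 0.714% to 14.6% in the embryonic libraries. Library medians were 11 to 20 UMIs of the 5 neuronal genes at 3739 to 28681 UMIs in all. In the embryonic libraries they were 12 to 31 at 2513 to 6577.5 UMIs. Whether the rule finds neurons of both ages equally well was not tested, so the shares do not compare how many neurons were caught. The study removed neuronal clusters from its postnatal data too.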

How the results depend on the processing

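Of 32 genes called between ages, 1 (Ptn) was called under every alternative. Over 671 values of called genes under alternatives, 453 stayed past the threshold, 217 kept their direction but lost the call and 1 (Sst, 0.82 without E13.5 saline replicate 3, with a lowest value of -5.55 without another library) reversed. The 32 calls became 13 with at least 16 marker UMIs, 17 with 4 times as many neuronal as microglial UMIs, 3 with stricter barcode filters (1000 genes, 10% mitochondrial UMIs), 251 without a filter on low counts and 60 with DESeq2, and, in alternatives added after seeing the data, 69 without shared barcodes and 71 with libraries of at least 10 neuron barcodes. Leaving out 1 library gave 1 (without E13.5 MIA replicate 3) to 168 calls (without E15.5 saline replicate 1), with 13, 11, 12 and 13 without E13.5 saline replicates 2 and 3, E15.5 saline replicate 2 and E15.5 MIA replicate 2. The fit without E13.5 MIA replicate 3 compared the ages in saline libraries alone. The 0 calls after MIA became 1 with at least 16 marker UMIs and 10 without a filter, and stayed at 0 without shared barcodes. Equal replicate numbers were not shown to pair libraries: at E15.5 the correlations of same-numbered saline and MIA libraries were 0.343, 0.0834 and 0.192, though each library correlated best with its own number. With the replicate block the calls were 380 between ages and 4 after MIA. All 4 after MIA were red blood cell genes that were lower, and 1 barcode of E15.5 saline replicate 2 held most of that library's red blood cell UMIs. Those between ages were 240 higher and 140 lower among 10136 genes tested. They included 4 of 10 intermediate progenitor, 3 of 9 apical progenitor and 3 of 10 cell cycle genes that were lower. Of 20 general neuronal genes 4 were higher and 2 lower, and of 12 deep-layer genes 3 were higher and 2 lower. Of 10 callosal and upper-layer genes 7 were higher, and of 14 synaptic genes 5 were higher. With the replicate block, the share between ages had an exact permutation p of 0.0625. For microglial RNA between treatments the exact permutation p was 0.09375 in points and 0.0625 as a log2 ratio, where the smallest possible is 0.03125. The age difference of shares passed the threshold without E15.5 MIA replicate 3 (4.62 points) and, at 2.71 points, with 4 times as many neuronal as microglial UMIs (exact permutation, adjusted p = 0.030 for both), and leaving out 1 library gave 1.45 to 4.62. The treatment difference of shares ranged from -0.194 (without E15.5 MIA replicate 1) to 2.97, and was 2.09 without shared barcodes. The age difference of microglial RNA was -0.000476 with 4 times as many neuronal UMIs and -0.00951 over libraries with at least 20 neuron barcodes. Without shared barcodes it was 0.0193. Relative to microglia it was 0.0209 without shared barcodes, and without 1 library it ranged from -0.601 to 0.184, above 0 without E13.5 MIA replicate 3 (0.184), E15.5 saline replicate 3 (0.103) or E15.5 MIA replicate 3 (0.112). Without shared barcodes the treatment differences of microglial RNA were -0.0293 points and, as a log2 ratio, -0.989. Leaving out Coro1a and Ctsz changed no direction. Between ages, Mki67 ranged from -1.85 to 0.0885 (without E13.5 saline replicate 3) on leaving out 1 library. After MIA, Ebf1 ranged from -2.02 and Cxcl12 from -0.20 (both without E15.5 MIA replicate 1) to 4.53 and 2.56, and Hbb-bt from -6.75 to 0.56 (without E15.5 saline replicate 2). The cause of these changes was not tested. The comparison after MIA at E13.5 and the difference between ages were not run, since 1 E13.5 MIA library had at least 20 neuron barcodes. Depth limits the rare genes: E13.5 rests on 222 of the 1621 neuron barcodes fitted.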
